A study of Mus musculus with 48 samples.

Results

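Duodenal and jejunal villi were compared in sham-operated mice. The comparison takes in 8 libraries of the 48 in the series, 4 of the duodenum and 4 of the jejunum, all those of the sham groups of these tissues 9 days after surgery. They came from male C57Bl6 mice with diet-induced obesity, which were raised on a high fat diet, had sham surgery, received a liquid elemental diet for 9 days and were killed fasted at 10am. The villi were scraped off after a short time in ice-cold EDTA, so the libraries hold mainly the epithelium and the cells that lie in it. Nothing in the labels says whether duodenum and jejunum of the same number came from 1 mouse, and p-values measure only the spread between these libraries. The other surgery in the series, Roux-en-Y gastric bypass (RYGB), and the ileum enter only where a result is set beside them.

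The lining of the small intestine changes along its length. The duodenum receives gastric acid, bile and pancreatic enzymes, activates the enzymes, and takes up iron, calcium and folate. The jejunum follows it and takes up most of the sugar, fat and peptides of a meal, and the ileum recovers bile acids and vitamin B12. The transcription factors of the GATA, CDX and PDX families help to set these regional programs.

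Expression was given as CPM, which relates the reads of a gene to all counted reads of its library, rounded to 0.1 by the authors. Of the genes listed, 10907 were in the duodenum table, 11021 in that of the jejunum and 10893 in both, and 10818 of these had a mean of at least 1 CPM over the 8 libraries. The depth of the libraries is unknown. All duodenum sham libraries carried lane number 2 in the labels and all jejunum sham libraries lane number 1, and each tissue had a table of its own, so region, lane and table cannot be told apart within the 8 libraries. In the duodenum table, 99.9% of the 10907 genes were also listed for the jejunum, and whether the duodenum table was limited by another table as well as by its own levels is not known. A gene that it does not list may thus have been expressed there.

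Markers of absorptive enterocytes were present in every library, with 12 of 12 listed. Their summed level was between 53292 and 69967 CPM in the duodenum and between 87906 and 101855 CPM in the jejunum, without overlap. None of them was called, and 10 had the jejunum mean above (median log2 difference -0.37). Apoa4 alone had means of 23898 CPM in the duodenum and 40878 CPM in the jejunum, so the sums depend much on it. Alpi went the other way without overlap, with means of 5393 and 2215 CPM. The sum is thus no measure of the share of enterocytes. No gene of a list of Brunner gland and stomach markers (0 of 12) was in both tables, which given this limit says nothing of their level. Cybrd1, Trpv6 and S100g, which serve iron and calcium uptake in the duodenum, were listed in neither table, nor were Fabp6, Prss2, Cpa1 and Pnlip.

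Some libraries stood apart from their group. Duodenum sham 1 and 2 carried RNA of pancreatic acinar cells, the cells that make digestive enzymes. The 5 acinar genes listed in both tables (Cela1, Clps, Ctrl, Pnliprp1 and Rnase1) summed to 4995 CPM in duodenum sham 1 and 16476 CPM in duodenum sham 2. They summed to between 38 and 39 CPM in duodenum sham 3 and 4 and to between 16 and 24 CPM in the jejunum libraries. Over these 5 genes the fit gave log2 differences from 4.24 to 5.27 with adjusted p from 0.26 to 0.33, and none was called. They are kept out of the regional results. Beyond this list, Klk1 and Nupr1 were also at least 10 times as high in duodenum sham 1 and 2 as in any other sham library. Genes of the duodenum libraries that the tables do not list made up 2.93% of the CPM of duodenum sham 1 and 7.49% of that of duodenum sham 2, against at most 0.303% in the other 6 libraries. Of the 33 genes of the acinar list, the other 28 were not in both tables.

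**Figure D1:**
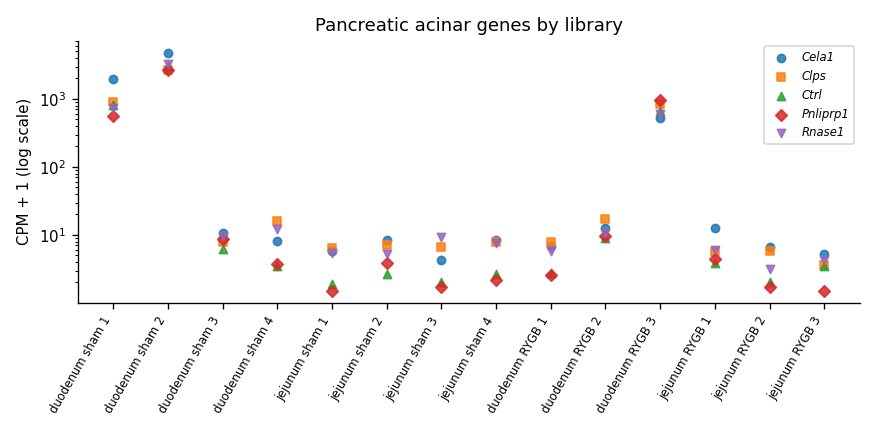
CPM + 1 on a log scale (y axis) of 5 pancreatic acinar genes in the sham and RYGB libraries of duodenum and jejunum (x axis); each point is 1 gene in 1 library. Duodenum sham 1 and 2 and duodenum RYGB 3 lie far above the other libraries, in which every gene is at 16.0 CPM or less.

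Duodenum sham 4 and jejunum sham 2 lay between the groups. Across genes, on log2(CPM + 1), duodenum sham 4 had a mean Pearson correlation of 0.951 with the other duodenum libraries and of 0.970 with the jejunum libraries. Every other library was nearer to its own group. The gap was smallest for jejunum sham 2, with 0.972 to its own group and 0.967 to the duodenum. Results are given below with and without these libraries.

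At an adjusted p under 0.05 and a fold of at least 1.5, 21 of 10818 genes (0.194%) differed between sham duodenum and sham jejunum (limma on log2(CPM + 1), Benjamini-Hochberg adjustment over all genes tested). Of these, 12 (0.111%) were higher in the duodenum and 9 (0.0832%) were higher in the jejunum. At an unadjusted p under 0.05 there were 1478 genes (13.7%), 968 higher in the duodenum and 510 in the jejunum. In 504 genes (4.66%) all 4 duodenum libraries lay above all 4 jejunum libraries, and in 277 (2.56%) below them. The mean was above in the duodenum in 59.1% of all genes, and the median log2 difference over them was 0.058.

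The number of calls rested on single libraries. Without duodenum sham 4 it was 172, and without jejunum sham 2 it was 97. Without duodenum sham 1 it was 15, and without any 1 of duodenum sham 2 or 3 or jejunum sham 1, 3 or 4 it was 1. That gene was Foxq1, which was called in all 8 of these fits. It was also the only call without duodenum sham 1 and 2 together. With the replicate number as a block none of the 21 genes was called, and Foxq1 had an adjusted p of 0.074.

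**Figure D2:**
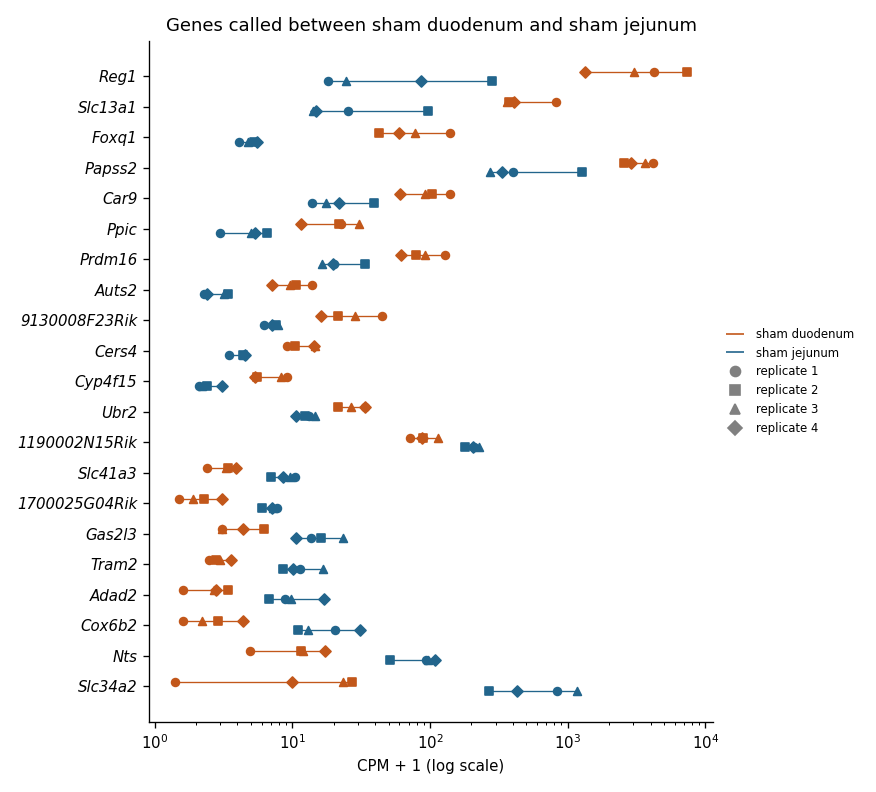
CPM + 1 on a log scale (x axis) of the 21 called genes (y axis) in the 4 sham duodenum and the 4 sham jejunum libraries, with 1 marker shape per replicate number and a line from the lowest to the highest library. The groups do not overlap in any of these genes.

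Foxq1, a forkhead transcription factor (ENSMUSG00000038415, chromosome 13 from 31556134 to 31560976 in GRCm38), had the smallest adjusted p. It was at 138.2, 41.7, 76.7 and 58.4 CPM in duodenum sham 1 to 4 and at 3.1, 4.3, 3.8 and 4.5 CPM in jejunum sham 1 to 4. The lowest duodenum library was thus far above the highest jejunum library, and the jejunum libraries hardly varied. The mean was 78.8 ± 42.1 CPM (SD, n = 4) in the duodenum and 3.93 ± 0.624 CPM (SD, n = 4) in the jejunum, a log2 difference of 3.89 (standard error 0.31, limma adjusted p = 0.0032).

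The RNA of 2 genes that help to bring sulfate into use in the cell was higher in the duodenum. Slc13a1, the sodium-coupled sulfate transporter of the apical membrane, was at 823.2, 371.6, 359.2 and 405.4 CPM in the duodenum libraries and at 24.6, 95.9, 13.1 and 13.9 CPM in the jejunum libraries. Papss2 makes the activated sulfate that sulfotransferases use, and it was at 4139.3, 2549.0, 3621.1 and 2870.7 CPM against 403.1, 1280.1, 273.8 and 335.1 CPM. In both genes jejunum sham 2 was the highest jejunum library. The log2 differences were 4.10 (standard error 0.57, limma adjusted p = 0.033) for Slc13a1 and 2.79 (standard error 0.44, limma adjusted p = 0.049) for Papss2. With each of the 8 libraries left out in turn, each gene was called in 2 of the 8 fits. This pair of genes is described together after their values were seen. In the RYGB libraries the regions overlapped in both genes, with the duodenum mean above. Slc13a1 was at 116.4, 558.4 and 619.3 CPM in the RYGB duodenum and at 63.2, 300 and 232.4 CPM in the RYGB jejunum. Papss2 was at 1814.1, 3599.2 and 4413 CPM against 1102.9, 2548.1 and 2260.5 CPM.

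Reg1 encodes a secreted lectin of the regenerating family that pancreatic acinar cells also make. It was at 4241.2, 7417.4, 3019.7 and 1344.8 CPM in the duodenum libraries and at 17.1, 282.1, 23.6 and 84.4 CPM in the jejunum libraries (log2 difference 5.88, standard error 0.83, limma adjusted p = 0.036). Duodenum sham 1 and 2, the libraries with acinar RNA, had the 2 highest values. Without both, the log2 difference was 5.14 with an adjusted p of 0.16, and the gene was no longer called. The part of acinar RNA in the difference was not tested.

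The other duodenal calls were smaller. Car9, a carbonic anhydrase of the cell surface, had 98.4 ± 32.9 CPM (SD, n = 4) in the duodenum and 22.1 ± 11.2 CPM (SD, n = 4) in the jejunum. Prdm16, a transcriptional regulator that also acts in brown fat and stem cells, had 89.5 ± 28.2 CPM against 21.4 ± 7.55 CPM (SD, n = 4 each). Auts2, a nuclear regulator known from neurodevelopment, was between 6.1 and 13.0 CPM in the duodenum and between 1.3 and 2.4 CPM in the jejunum. Cers4, a ceramide synthase, was between 8.1 and 13.6 CPM against between 2.5 and 3.5 CPM. Ppic, a cyclophilin that helps proteins fold, was between 10.5 and 29.3 CPM against between 2.0 and 5.5 CPM. Ubr2, a ubiquitin ligase that recognises the N-terminus of proteins, had the smallest log2 difference of the 12, 1.17 (standard error 0.18, limma adjusted p = 0.049). The remaining duodenal calls were the cytochrome P450 gene Cyp4f15, with a log2 difference of 1.51, and 9130008F23Rik, with 1.84.

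Among the genes higher in the jejunum, Slc34a2 had the largest difference. It encodes the sodium-phosphate cotransporter by which the gut takes up phosphate (ENSMUSG00000029188, chromosome 5 from 53038081 to 53071664). It was at 0.4, 26.0, 22.4 and 8.9 CPM in the duodenum libraries and at 830.2, 266.9, 1166.7 and 430.8 CPM in the jejunum libraries. The mean was 14.4 ± 11.9 CPM (SD, n = 4) against 674 ± 405 CPM (SD, n = 4), a log2 difference of -5.90 (standard error 0.87, limma adjusted p = 0.044).

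Nts encodes neurotensin, a peptide hormone of enteroendocrine cells that is released after fat (ENSMUSG00000019890, chromosome 10 from 102481756 to 102490486). It was at 3.9, 10.6, 10.9 and 16.3 CPM in the duodenum libraries and at 93.1, 50, 96.1 and 108.2 CPM in the jejunum libraries, a log2 difference of -3.02 (standard error 0.38, limma adjusted p = 0.033). All jejunum libraries lay above all duodenum libraries.

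The other jejunal calls were mostly genes of low level. Cox6b2, which encodes an isoform of a cytochrome c oxidase subunit known from the testis, was between 0.6 and 3.4 CPM in the duodenum and between 10.0 and 30.2 CPM in the jejunum. Tram2, which has a role in protein entry into the endoplasmic reticulum, was between 1.5 and 2.6 CPM against between 7.5 and 15.7 CPM. Slc41a3, of the magnesium transporter family, was between 1.4 and 2.9 CPM against between 6.0 and 9.5 CPM. Gas2l3, which links actin and microtubules, was between 2.1 and 5.2 CPM against between 9.7 and 22.3 CPM. 1190002N15Rik was the exception in level, with 89.4 ± 17.6 CPM in the duodenum and 205 ± 19.1 CPM in the jejunum (SD, n = 4 each). The others were Adad2 (log2 difference -1.98) and 1700025G04Rik (-1.72).

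The sequence before the transcription start is shown for 4 of these genes whose windows were in RefSeq (GRCm38.p6), since they carry the largest called differences with a window. Each line gives 250 bases, 5′ to 3′ on the strand of the gene, for the first window that the RefSeq table lists. Capitals mark AGATAA, a motif known for Gata4 and its relatives, on either strand. Capitals near the end of 3 of the windows mark the letters TATATA, as in the core promoter element of that kind. The windows lie at chr5:53049103-53049352 (plus strand) for Slc34a2, chr10:102490419-102490668 (minus strand) for Nts, chr6:78425733-78425982 (plus strand) for Reg1 and chr19:32595465-32595714 (plus strand) for Papss2. The windows of Slc34a2 and Reg1 lie within the spans that GENCODE M21 gives these genes, that of Nts overlaps the span in part, and that of Papss2 lies before it.
Slc34a2: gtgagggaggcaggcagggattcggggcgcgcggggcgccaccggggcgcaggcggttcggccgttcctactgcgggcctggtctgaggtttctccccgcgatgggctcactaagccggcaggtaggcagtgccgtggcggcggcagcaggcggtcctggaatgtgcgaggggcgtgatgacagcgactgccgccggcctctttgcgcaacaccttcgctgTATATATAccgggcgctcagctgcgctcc
Nts: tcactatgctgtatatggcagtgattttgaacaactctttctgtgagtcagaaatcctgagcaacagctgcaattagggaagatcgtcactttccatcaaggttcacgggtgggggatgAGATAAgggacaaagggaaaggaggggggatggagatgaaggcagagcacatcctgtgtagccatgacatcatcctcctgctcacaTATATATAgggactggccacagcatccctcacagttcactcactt
Reg1: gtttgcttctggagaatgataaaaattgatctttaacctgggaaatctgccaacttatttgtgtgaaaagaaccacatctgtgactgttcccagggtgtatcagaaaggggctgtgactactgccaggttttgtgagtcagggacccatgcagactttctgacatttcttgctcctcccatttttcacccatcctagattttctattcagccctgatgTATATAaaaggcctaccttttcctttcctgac
Papss2: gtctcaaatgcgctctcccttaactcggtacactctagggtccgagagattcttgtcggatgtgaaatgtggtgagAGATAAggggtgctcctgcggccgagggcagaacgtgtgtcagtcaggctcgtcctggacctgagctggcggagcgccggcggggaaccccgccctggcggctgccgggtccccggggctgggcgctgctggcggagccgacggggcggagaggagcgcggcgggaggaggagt

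AGATAA was found in the windows of Nts and Papss2, and TATATA in those of Slc34a2, Nts and Reg1. Among the 16 called genes with a window, 1 of 8 higher in the duodenum and 1 of 8 higher in the jejunum held AGATAA, against 6.03% of the 8452 windows of genes tested and 10.3% of all 27025 windows. TATATA was in 1 of 8 and in 2 of 8, against 2.07% and 5.56%. TTTATNG, a CDX motif, was in 0 of 8 and in 1 of 8 against 6.45% and 10.2%, and CAAAGTCCA, an HNF4 motif, was in none of the 16. These motifs were searched for after the calls were known, and a match is only a match of letters.

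In the ileum of sham mice, 20 of the 21 called genes were listed. For 19 of these 20 genes the 3 ileum sham libraries that carried lane number 2, as the duodenum libraries did, all lay on the jejunum side of the midpoint between the sham means on log2(CPM + 1). With the midpoint taken in CPM this held for 18. The exception was 1190002N15Rik, with 128.7, 81.9 and 81.3 CPM in them, close to the duodenum. For Slc34a2 these libraries had 1614.4, 1511.4 and 2358.4 CPM, and for Nts 139.3, 164.0 and 153.9 CPM. Foxq1 was at 1.7, 0.7 and 6.0 CPM there, below or near the jejunum. Reg1 was at 2.6, 1.3 and 0.9 CPM, under every jejunum value. No share over all genes was computed beside the counts of 19 and 18. The ileum is another region with a table of its own, so these counts do not test the part of lane.

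Over all 5 ileum sham libraries, the ileum mean lay below the jejunum mean in 6 of the 11 genes higher in the duodenum that the ileum table lists, and between both means in the other 5. It lay above the jejunum mean in 7 of the 9 genes higher in the jejunum and between both means in the other 2. Among genes whose groups did not overlap with the duodenum above, the ileum mean lay below the jejunum mean in 216 of the 478 listed. Among those with the jejunum above, it lay above the jejunum mean in 171 of the 275 listed. These counts are a description, since the ileum table was made separately and its genes were not tested here.

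**Figure D3:**
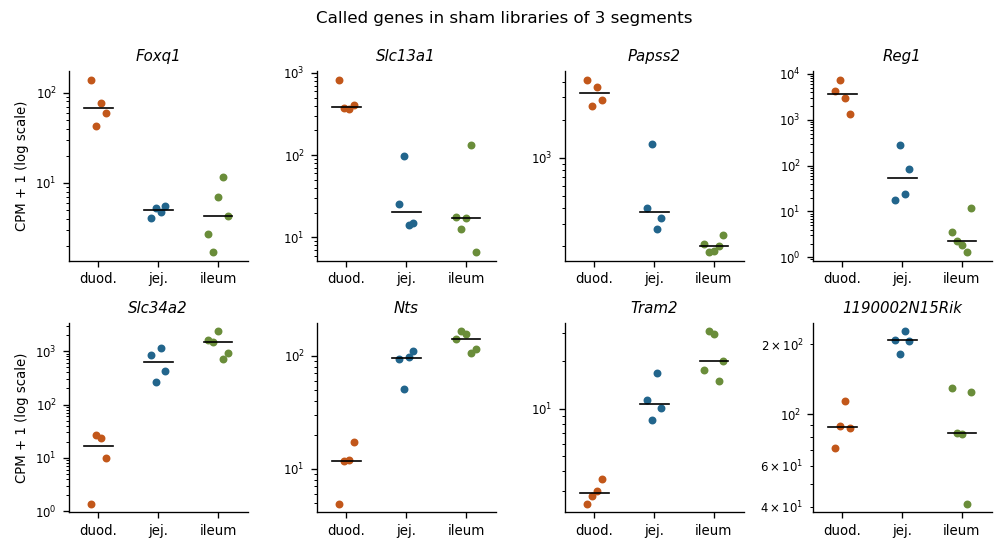
CPM + 1 on a log scale (y axis) in the sham libraries of duodenum, jejunum and ileum (x axis) for 8 called genes; points are libraries and lines are medians. Slc34a2, Nts and Tram2 have their highest medians in the ileum. Foxq1, Slc13a1, Papss2, Reg1 and 1190002N15Rik have their lowest there, and 1190002N15Rik has its highest in the jejunum.

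The RYGB mice give a further 3 duodenum and 3 jejunum libraries, which the calls did not use. Their surgery differed, so region and any effect of the bypass that differs by region cannot be told apart in them. The mean went the same way in 11 of the 12 genes higher in the sham duodenum, with no overlap between the RYGB groups in 7 of them. It went the same way in 6 of the 9 genes higher in the sham jejunum, with no overlap in 4. The share of all genes whose mean went the same way is not given here. Over all genes tested, the RYGB groups did not overlap in 27.4% (duodenum above) and 9.96% (jejunum above). Foxq1 was at 21.6, 41.5 and 76.7 CPM in the RYGB duodenum and at 1.0, 0.4 and 0.9 CPM in the RYGB jejunum. Slc34a2 was at 103.8, 6.6 and 0.7 CPM against 334.0, 201.1 and 411.2 CPM. In jejunum RYGB 2, the library of the RYGB jejunum that carried lane number 2, 12 of the 21 genes lay on the jejunum side of the same log2 midpoint, against 17 in jejunum RYGB 1 and 9 in jejunum RYGB 3, both of lane 1. In a fit of all 14 libraries with surgery and lane as covariates, in which the lane term rests on jejunum RYGB 2, 7 of the 21 genes were called. The sign turned in 9130008F23Rik, Adad2, Tram2 and 1190002N15Rik. Since lane follows region in the sham libraries, the regional term of this fit also rests on jejunum RYGB 2. It therefore cannot test the sham difference.

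Several genes known for their place along the gut had large differences that missed the threshold. Akp3, an intestinal alkaline phosphatase of the duodenum, was at 9306.5, 3639.1, 3825.7 and 204.7 CPM in the duodenum libraries and at 0.9, 120.6, 2.6 and 3.1 CPM in the jejunum libraries (log2 difference 8.22, standard error 1.42, limma adjusted p = 0.069). The lowest duodenum library was duodenum sham 4 and the highest jejunum library was jejunum sham 2, and the groups did not overlap. Tmprss15, the enteropeptidase that activates trypsinogen, was at 1032.8, 680.9, 828.0 and 307.1 CPM against 9.9, 278.5, 18.1 and 31.3 CPM (log2 difference 4.14, adjusted p = 0.11). The same pair of libraries came nearest to each other.

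On the jejunal side, Enpp7, the alkaline sphingomyelinase, was at 5.0, 35.9, 50.4 and 102.9 CPM in the duodenum libraries and at 1455.3, 565.7, 2129.0 and 496.3 CPM in the jejunum libraries (log2 difference -4.87, limma adjusted p = 0.055). Naaladl1, a peptidase of the brush border, was at 12, 93.1, 130.5 and 434.5 CPM against 1006.7, 450.5, 1095.4 and 815.4 CPM (log2 difference -3.13, adjusted p = 0.18). In both genes duodenum sham 4 was the highest duodenum library. With each of the 8 libraries left out in turn, the adjusted p ran from 0.020 to 0.21 for Enpp7, from 0.0080 to 0.24 for Akp3, from 0.0036 to 0.30 for Tmprss15 and from 0.040 to 0.43 for Naaladl1. It was under 0.05 in 3, 2, 1 and 1 of the 8 fits. Akp3 and Enpp7 are in none of the gene lists and were chosen after their values were seen, as were all other genes named below that are neither called nor among the 36 fixed genes given in the methods.

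**Figure D4:**
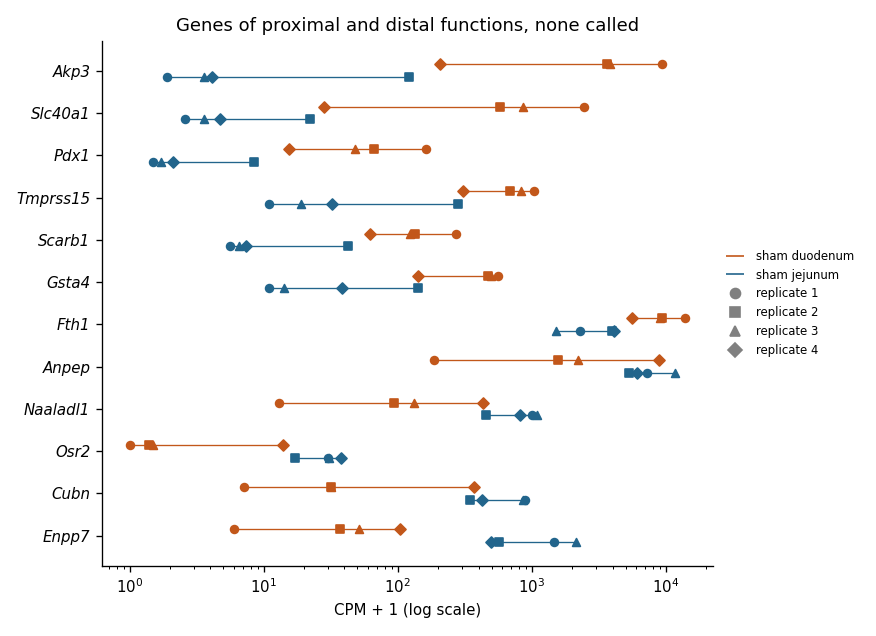
CPM + 1 on a log scale (x axis) of 12 genes that were not called (y axis) in the 4 sham duodenum and the 4 sham jejunum libraries, with 1 marker shape per replicate number. Duodenum sham 4 is the duodenum library nearest to the jejunum in most of them, and jejunum sham 2 is often the jejunum library nearest to the duodenum.

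Of 32 transcription factors of intestinal segments that were tested, none was called (0 in each direction). The median log2 difference was 0.06, as over all genes, with 3 not overlapping in each direction (9.38%, against 4.66% and 2.56% of all genes). Pdx1, needed for duodenum and pancreas, was at 159.9, 65.8, 47.3 and 14.5 CPM in the duodenum libraries and at 0.5, 7.4, 0.7 and 1.1 CPM in the jejunum libraries (log2 difference 4.36, standard error 0.72, limma adjusted p = 0.055). Onecut2, another factor of the proximal gut, was at 382.1, 186.7, 345.2 and 130 CPM against 75.3, 138.0, 82.4 and 44.5 CPM (adjusted p = 0.16), with overlap. Osr2 was at 0.0, 0.4, 0.5 and 13.0 CPM in the duodenum and at 29.3, 16.2, 29.5 and 36.4 CPM in the jejunum (log2 difference -3.58, adjusted p = 0.10). Here too duodenum sham 4 stood between the groups.

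The general factors of the intestinal epithelium differed little. Gata4, which sets the jejunal program against the ileal one, had a log2 difference of 0.35 (standard error 0.21, adjusted p = 0.51), and Gata6 one of 0.06 (standard error 0.14, adjusted p = 0.88). Hnf4a, a nuclear receptor of enterocytes, had 0.03 (standard error 0.24, adjusted p = 0.97). The caudal factors Cdx1 and Cdx2 had -0.29 (standard error 0.26, adjusted p = 0.67) and -0.46 (standard error 0.18, adjusted p = 0.31). The groups overlapped in all 5 genes.

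Of 14 iron genes tested, none was called, 6 did not overlap with the duodenum above (42.9%, against 4.66% of all genes) and 0 with the jejunum above (against 2.56%), and the median log2 difference was 0.79 against 0.06 over all genes. Slc40a1, the iron exporter ferroportin, was at 2468.1, 577.7, 855.9 and 26.9 CPM in the duodenum libraries and at 1.6, 21.1, 2.6 and 3.7 CPM in the jejunum libraries (log2 difference 6.27, standard error 1.22, limma adjusted p = 0.095). Its range over the duodenum libraries was wide, and the groups did not overlap. Slc11a2, the apical iron importer, was at 1197.3, 209.6, 172.3 and 81.4 CPM against 68.3, 88.9, 57.5 and 58.2 CPM (adjusted p = 0.28), with duodenum sham 1 far above the rest. Fth1, the ferritin heavy chain that stores iron, was at 13960.9, 9402.4, 8985.5 and 5559.8 CPM against 2270.0, 3935.8, 1524.0 and 4106.5 CPM (adjusted p = 0.12). Epas1, the hypoxia-inducible factor that controls iron uptake in the duodenum, was between 96.2 and 167.8 CPM in the duodenum and between 25.8 and 85.9 CPM in the jejunum (adjusted p = 0.12).

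Among the 7 genes tested from the list of calcium, phosphate and magnesium handling, only Slc34a2 was called. Over all genes, 0.0832% were called higher in the jejunum. Slc41a3, of the magnesium transporter family and called as given above, is not in that list. Vdr, the vitamin D receptor, was between 505.6 and 715.5 CPM in the duodenum and between 336.8 and 371.2 CPM in the jejunum, without overlap (log2 difference 0.77, standard error 0.16, limma adjusted p = 0.11). Of 17 vitamin genes none was called (0 in each direction). The jejunum mean was above in 10 of them, and the median log2 difference was -0.18. The groups did not overlap in 3 with the duodenum above (17.6%, against 4.66% of all genes) and in 1 with the jejunum above (5.88%, against 2.56%). At an unadjusted p under 0.05 (limma) there were 5 and 4, against 8.95% and 4.71% of all genes. Slc46a1, the proton-coupled folate transporter, was at 714.2, 630.7, 573.5 and 565.2 CPM in the duodenum libraries and at 359.2, 455.6, 264.2 and 409.6 CPM in the jejunum libraries (log2 difference 0.76, adjusted p = 0.15). The reduced folate carrier Slc19a1 was between 83.4 and 121.4 CPM against between 19.5 and 57.9 CPM, also without overlap (adjusted p = 0.11). Cubn, part of the receptor for vitamin B12 with intrinsic factor, was at 6.1, 30.9, 30.7 and 366.8 CPM against 893.3, 342.2, 863.7 and 421.8 CPM (adjusted p = 0.15), so that duodenum sham 4 lay within the range of the jejunum. Its log2 difference turned from -3.84 to 2.58 in the fit of 14 libraries with surgery and lane as covariates. Bco1, which cleaves carotene, was at 3.2 CPM or less in every library, with a log2 difference of -0.08 (adjusted p = 0.92).

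The peptide and amino acid genes leaned to the jejunum. None of the 27 tested was called, the jejunum mean was above in 22, and the median log2 difference was -0.94. At an unadjusted p under 0.05 there were 14 with the jejunum above and 1 with the duodenum above, where over all genes 4.71% and 8.95% were. Only 2 of the 27 (7.41%, against 2.56% of all genes) did not overlap with the jejunum above. Slc15a1, the transporter of small peptides, was at 195.4, 343.6, 442.0 and 774.4 CPM in the duodenum libraries and at 1061.3, 592.8, 1031.3 and 878.9 CPM in the jejunum libraries (adjusted p = 0.24). Anpep, the aminopeptidase of the brush border, was at 186.2, 1555.9, 2213.5 and 8810.9 CPM against 7241.2, 5325.2, 11745.8 and 6099.8 CPM (adjusted p = 0.34). The summed level of the list was between 6942 and 14356 CPM in duodenum sham 1 to 3, 31281 CPM in duodenum sham 4 and between 20493 and 37256 CPM in the jejunum libraries. With surgery and lane as covariates over 14 libraries, the log2 difference turned from -1.16 to 0.031 for Slc15a1 and from -2.23 to 0.057 for Anpep. As for Cubn, that fit rests on jejunum RYGB 2 and cannot test the sham difference. The summed enterocyte markers were above in the jejunum too, and 7 of the 12 are also in the lists of peptide, sugar or fat genes. Their part in these lists' differences was not tested.

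Of 20 sugar genes none was called, with a median log2 difference of -0.37 and the jejunum mean above in 16. Slc5a1, the sodium-glucose transporter, was at 1699.0, 4231.0, 4139.2 and 6431.9 CPM in the duodenum libraries and at 4791.2, 4640.3, 4822.8 and 3959.1 CPM in the jejunum libraries. Its log2 difference was -0.29 (standard error 0.37, adjusted p = 0.79). The fructose transporter Slc2a5 had 0.10 (standard error 0.46, adjusted p = 0.95). Lct, the lactase, was at 149.4, 1512.7, 1881.0 and 4681.5 CPM against 5394.5, 3254.7, 5089.7 and 3436.3 CPM (log2 difference -1.81, adjusted p = 0.39), and Sis, sucrase-isomaltase, had a log2 difference of -0.81 (adjusted p = 0.56). Duodenum sham 1 was the lowest of the 8 libraries in Slc5a1, Lct and Sis. The difference of Lct turned to 0.38 in the fit of 14 libraries with surgery and lane as covariates, which rests on jejunum RYGB 2.

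None of 26 genes of fat uptake and chylomicron assembly was called. The median log2 difference was -0.22, and 5 (19.2%, against 2.56% of all genes) did not overlap with the jejunum above and 1 (3.85%, against 4.66%) with the duodenum above. Apoa4, an apolipoprotein of chylomicrons, was at 25311.7, 25594.3, 21866.0 and 22821.0 CPM in the duodenum libraries and at 39146.4, 37520.1, 29793.3 and 57051.9 CPM in the jejunum libraries (log2 difference -0.74, standard error 0.33, limma adjusted p = 0.36). Apoa1 was at 6389.7, 5712.0, 6101.9 and 8475.1 CPM against 17854.5, 8923.2, 11762.8 and 22362.9 CPM (log2 difference -1.12, adjusted p = 0.21). Neither overlapped, but the difference of Apoa4 turned to 0.20 in the fit of 14 libraries with surgery and lane as covariates. The fatty acid binding proteins Fabp1 and Fabp2 overlapped, with log2 differences of 0.32 (adjusted p = 0.81) and -0.21 (adjusted p = 0.84).

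The gene with the duodenum above was Scarb1, a receptor for lipoprotein lipids, at 272.9, 133.9, 122.1 and 61.1 CPM against 4.6, 41.5, 5.5 and 6.4 CPM (log2 difference 3.65, standard error 0.65, limma adjusted p = 0.073). Npc1l1, the cholesterol importer, was at 543.1, 619.7, 695.4 and 1622.2 CPM in the duodenum and at 2205.2, 1000.5, 2158.7 and 1596.7 CPM in the jejunum (adjusted p = 0.26). Over the 20 genes of cholesterol uptake and synthesis the median log2 difference was 0.86, with the duodenum mean above in 15 (over all genes, 59.1%), and none was called or free of overlap in either direction (0 of 20). At an unadjusted p under 0.05 there were 0 with the duodenum above and 2 with the jejunum above, against 8.95% and 4.71% of all genes. In the synthesis genes Sqle, Fdft1, Cyp51 and Hmgcs1, duodenum sham 1 and 2, the libraries with acinar RNA, were the 2 highest sham libraries. Jejunum sham 2 was the highest sham jejunum library in each of these genes. The part of acinar RNA in these levels was not tested. Cyp51 was at 317.6, 204.4, 73.2 and 8.9 CPM in the duodenum libraries and at 9.4, 115.2, 11.6 and 14 CPM in the jejunum libraries. In these genes duodenum sham 4 lay within or below the range of the sham jejunum. In the RYGB jejunum Cyp51 was at 253.2, 342.8 and 423.9 CPM.

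Genes of fatty acid oxidation and ketone formation leaned to the duodenum, with the duodenum mean above in 19 of 20 (over all genes, 59.1%) and a median log2 difference of 0.82. At an unadjusted p under 0.05 there were 12 with the duodenum above and 0 with the jejunum above, against 8.95% and 4.71% of all genes. None was called and none was free of overlap (0 of 20). Cyp4a10, a fatty acid hydroxylase under control of the receptor PPARA, was at 449.8, 239.2, 265.2 and 114.5 CPM in the duodenum libraries and at 3.0, 183.4, 5.0 and 18.3 CPM in the jejunum libraries (adjusted p = 0.18). Here jejunum sham 2 lay within the range of the duodenum. With each library left out in turn the adjusted p ran from 0.0082, without jejunum sham 2, to 0.43, and it was under 0.05 in 1 of the 8 fits.

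Drug metabolism genes showed the same lean, with the duodenum mean above in 52 of 66 (over all genes, 59.1%) and a median log2 difference of 0.48. At an unadjusted p under 0.05 there were 22 with the duodenum above and 2 with the jejunum above, against 8.95% and 4.71% of all genes. Of the 66, 4 (6.06%) did not overlap with the duodenum above and 1 (1.52%) with the jejunum above, near the 4.66% and 2.56% of all genes, and none was called. Gsta4, a glutathione transferase that clears products of lipid oxidation, was at 557.9, 472.5, 497.7 and 141.3 CPM in the duodenum libraries and at 9.9, 140.1, 13.2 and 37.4 CPM in the jejunum libraries (log2 difference 3.61, standard error 0.76, limma adjusted p = 0.11). Duodenum sham 4 and jejunum sham 2 almost met.

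Among 16 enteroendocrine genes tested, Nts was the only call (1 of 16, against 0.0832% of all genes called higher in the jejunum). The duodenum mean was above in 13 of the 16 (over all genes, 59.1%), with a median log2 difference of 0.27. Gip, which encodes an incretin hormone of the proximal gut, was at 95.5, 102.0, 128.0 and 151.2 CPM in the duodenum libraries and at 82.6, 96.5, 110.1 and 196.8 CPM in the jejunum libraries (log2 difference 0.03, standard error 0.27, adjusted p = 0.98). Cck, which encodes cholecystokinin, was between 40.1 and 48.1 CPM in the duodenum and between 10.2 and 40.9 CPM in the jejunum (log2 difference 0.98, adjusted p = 0.31). Sct, for secretin, had a log2 difference of 0.05 (standard error 0.25, adjusted p = 0.95), and Gcg, for proglucagon, one of 0.51 (standard error 0.38, adjusted p = 0.59). Tph1, the enzyme of serotonin synthesis in enterochromaffin cells, was at 27.3, 24.7, 25 and 28.9 CPM against 11.7, 22.5, 13.0 and 9.1 CPM, without overlap (log2 difference 0.94, adjusted p = 0.15). The summed level of the list was between 515 and 787 CPM in the duodenum and between 437 and 710 CPM in the jejunum. Fewer cells of a type and less RNA per cell cannot be told apart in such samples.

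Apart from Nts, none of the marker genes of other cells was called. All 11 T cell and intraepithelial lymphocyte genes tested had the jejunum mean above (median log2 difference -0.91). At an unadjusted p under 0.05 there were 8 with the jejunum above and 0 with the duodenum above (over all genes, 4.71% and 8.95%), but only 1 (9.09%, against 2.56%) was free of overlap and none was called. Their summed level was 129, 68, 58 and 207 CPM in the duodenum libraries and 196, 140, 173 and 361 CPM in the jejunum libraries, so duodenum sham 4 lay within the range of the jejunum. Goblet cell genes summed to between 7955 and 14774 CPM in the duodenum and between 10083 and 14475 CPM in the jejunum, and genes of proliferation to between 66 and 81 CPM against between 70 and 88 CPM. All 7 tuft cell genes had the duodenum mean above (median log2 difference 0.31), with a summed level between 70.6 and 111.5 CPM in the duodenum and between 53.9 and 84.3 CPM in the jejunum. The medians were 0.32 over 3 vessel genes and 0.06 over 7 genes of Paneth and stem cells, and the 1 stroma and muscle gene tested had a log2 difference of 0.35. In the vessel list Lyve1 (log2 difference -0.78) did not overlap with the jejunum above (33.3% of the list, against 2.56% of all genes). In the list of Paneth and stem cells this held for Itln1 (log2 difference -1.54, 14.3% of the list). The part of these cells in the regional differences was not tested.

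Ada, which encodes adenosine deaminase and is abundant in the duodenum of the mouse, was at 4823.9, 2996.8, 1311.1 and 1021.9 CPM in the duodenum libraries and at 1246.9, 2115.2, 1207.0 and 1959.7 CPM in the jejunum libraries. Its log2 difference of 0.41 (standard error 0.47, limma adjusted p = 0.76) was no larger than its standard error. Alpi, an alkaline phosphatase of enterocytes along the small intestine, was between 3104.7 and 7775.9 CPM in the duodenum and between 1762.4 and 3038.8 CPM in the jejunum, without overlap (log2 difference 1.24, standard error 0.31, adjusted p = 0.15).

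**Figure D5:**
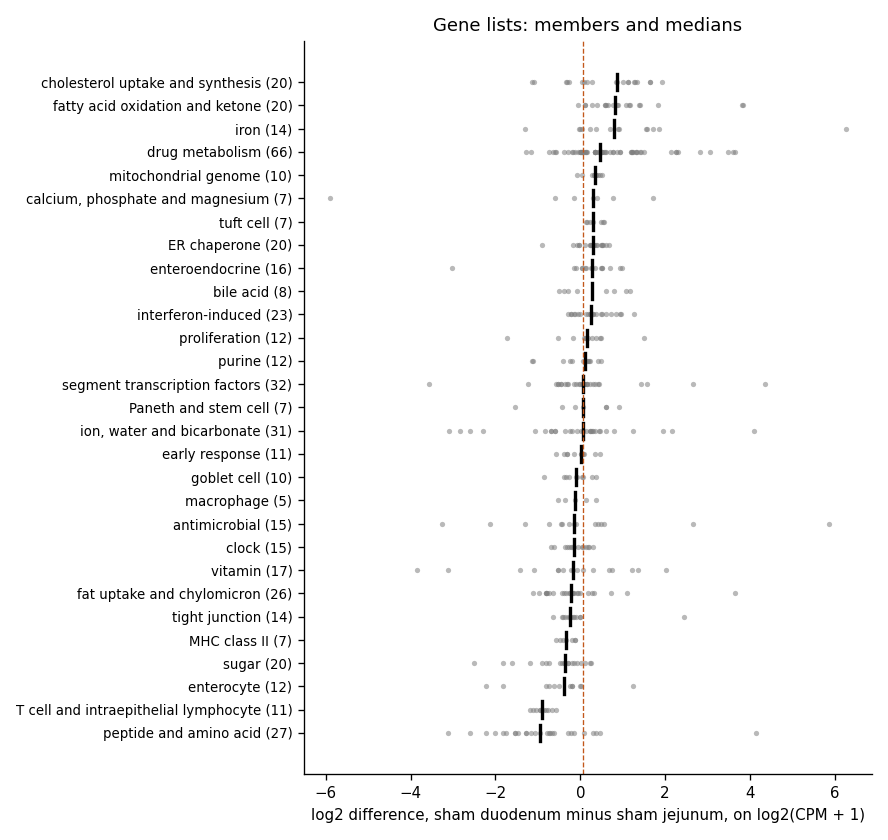
Log2 difference, sham duodenum minus sham jejunum (x axis), of the members (grey points) of each gene list with at least 5 genes tested (y axis, number tested in brackets), with the list's median (black bar) and the median of all genes (dashed line, 0.058). The medians run from -0.94 for peptide and amino acid genes to 0.86 for cholesterol genes, and the acinar list is left out.

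The lists not described above had medians between -0.33 and 0.34. Called higher in the duodenum were 2 of 31 genes of ion, water and bicarbonate transport (Car9 and Slc13a1) and 1 of 15 antimicrobial genes (Reg1). Over all genes this share was 0.111%. Of 14 tight junction genes, 13 had the jejunum mean above. In that list 2 (14.3%, against 2.56% of all genes) did not overlap with the jejunum above and 1 (7.14%, against 4.66%) with the duodenum above. Of 20 genes of endoplasmic reticulum chaperones, 5 (25%, against 4.66% of all genes) did not overlap with the duodenum above and 1 (5.00%, against 2.56%) with the jejunum above, at a median log2 difference of 0.30.

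Only 14 genes were listed in the duodenum table alone and 128 in the jejunum table alone. A gene absent from a table was under a minimum on level or left out for another reason, so no difference was computed for them. The 6 with the highest mean in the duodenum alone were Try10, a trypsin gene, with 0.0 to 30.7 CPM, the globin gene Hbb-bs with 0.2 to 14.2 CPM, Psat1, Ifitm2, Sorbs2 and Dynlt1f. In Try10 the values above 0 were those of duodenum sham 1 (3.7 CPM) and duodenum sham 2 (30.7 CPM), the libraries with acinar RNA. The 6 with the highest mean in the jejunum alone were Slc5a8, C1galt1c1, Cep164, Map3k6, Smim8 and Tnfaip8l2. Slc5a8, a sodium-coupled transporter of short chain fatty acids, was at 45.4, 62.1, 178.2 and 34.7 CPM in the jejunum libraries. Slc10a2, the ileal bile acid importer, was also listed in the jejunum table alone, at 0.3 to 1.1 CPM.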

How the data were processed

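RNA of intestinal villi was sequenced with the Illumina TruSeq Stranded mRNA kit. The authors deposited 1 table per tissue, and its values are CPM, rounded to 0.1, as read from the values (with 1 line per gene, the 8 sham libraries of duodenum and jejunum summed to between 925122.4 and 998503.5). Lines that repeat a gene with identical values (298 in the duodenum table, 359 in the jejunum table and 326 in the ileum table) were counted once. Per the submitters' processing notes, HTSeq and GRCm38 were used. The aligner is not given in the sources used here. No gene in the duodenum or jejunum table was at 1 CPM or more in fewer than 3 of its libraries, so low genes had been left out. Whether a further filter set which genes the duodenum table lists is not known. Depth is unknown, so no interval that needs counts was computed. No further column of values with a sample was found, and the study's own comparisons were not part of the tables.

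Tables were joined on the Ensembl ID. limma (version 3.58.1, R 4.3.3, empirical Bayes with a trend) was fitted on log2(CPM + 1) for genes whose mean over the 8 libraries was 1 CPM or more, without covariates, since lane follows tissue. A fold change on this scale understates the change of low genes. Benjamini-Hochberg adjustment over all genes tested was used, and a call needed an adjusted p under 0.05 and a fold of at least 1.5. The method was tested on simulated data in which the values of each gene were drawn independently. That test does not cover libraries that deviate in many genes at once. Replicates were compared pairwise, and at most 2.24% of genes had equal values in a pair, so none was counted as a duplicate.

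The libraries and the 35 gene lists were chosen with earlier results of these data known, so list counts are descriptions. Named were the 12 called genes with the largest difference in each direction whose groups do not overlap, up to 4 called members of each list, the 6 genes with the highest mean listed in 1 table alone, and 36 fixed genes: Gata4, Gata6, Pdx1, Cdx1, Cdx2, Onecut2, Hnf4a, Cybrd1, Slc11a2, Slc40a1, Trpv6, S100g, Slc46a1, Ada, Tmprss15, Lct, Sis, Slc5a1, Slc2a5, Apoa4, Apoa1, Fabp1, Fabp2, Npc1l1, Slc15a1, Bco1, Slc10a2, Fabp6, Gip, Cck, Sct, Nts, Gcg, Prss2, Cpa1 and Pnlip. Alternatives were another pseudocount, other minimums, 2 scalings, single libraries left out, duodenum sham 1 and 2 left out, the replicate number as a block, library weights, and 14 libraries with surgery or surgery and lane. Coordinates are those of GENCODE M21 (GRCm38), and sequences are from RefSeq (GRCm38.p6). Python 3.11.15 with pandas 2.3.3, numpy 2.4.6 and matplotlib 3.10.9 was used.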

Additional observations from a re-analysis of the deposited data

Results flagged for a closer look

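The regional difference was not the same in RYGB mice for some of the named genes, by a test of the difference itself (interaction term, limma over 14 libraries, adjusted over all genes). Over all genes this held for 562 of 10818 (5.2%). In Cubn the log2 difference between duodenum and jejunum in RYGB minus that in sham was 7.2 (adjusted p = 0.017). Cubn was at 201.1, 82.1 and 90.4 CPM in the RYGB duodenum and at 37.8, 5.0 and 5.1 CPM in the RYGB jejunum, the opposite order from sham. Among the called genes it was 2.00 for Tram2 (adjusted p = 0.015), 2.34 for Adad2 (adjusted p = 0.020), 2.23 for 1190002N15Rik (adjusted p = 0.046) and -2.52 for 9130008F23Rik (adjusted p = 0.020). In the RYGB jejunum Tram2 was at 3.6, 1.3 and 3.3 CPM, which overlaps the RYGB duodenum.

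Among 136 groups of 4 libraries, 7 held a single value well away from the other 3 on log2(CPM + 1), where chance alone flags about 1 in 20 groups (6.8). The gap was 0.911 of the range for Cdx2 in jejunum sham 3 (115.2 CPM, below the others) and 0.911 for Cers4 in jejunum sham 1 (2.5 CPM, below). It was 0.841 for Gcg in jejunum sham 1 (2.8 CPM, below) and 0.854 for Slc13a1 in duodenum sham 1 (823.2 CPM, above). Duodenum sham 4 was the outlying library for Osr2 (0.846, above) and Gsta4 (0.879, below), and jejunum sham 2 for Scarb1 (0.862, above).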

How the results depend on the processing

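The count of 21 calls (12 higher in the duodenum and 9 in the jejunum) depended on the libraries and on the settings. A pseudocount of 0.1 gave 12 calls, 4 of them higher in the jejunum. A minimum mean of 10 CPM, which leaves 7088 genes to test, gave 1 call, higher in the duodenum, and 0 in the jejunum (917 genes at an unadjusted p under 0.05 with limma, the only tool run). Leaving out duodenum sham 1 and 2 also gave 1 and 0 (916 genes unadjusted). No minimum gave 21, rescaling without the acinar list gave 21 (14 and 7) and median ratio scaling gave 15 (8 and 7). Library weights gave 115 (61 and 54), with all 21 genes among them. Leaving out 1 library gave from 1 to 172 calls, from 1 to 83 higher in the duodenum and from 0 to 89 higher in the jejunum. With the RYGB libraries, 14 libraries with surgery as a covariate gave 466 (363 and 103, 17 of the 21 among them), and with lane as well 297 (189 and 108, 7 of the 21 among them), where the lane term rests on jejunum RYGB 2 alone. Apart from fewer genes or libraries, the cause was not tested.

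With the replicate number as a block no gene was called (0 in total, 0 higher in the duodenum and 0 in the jejunum, limma), with 1580 at an unadjusted p under 0.05. The same number in both tissues is not shown to be 1 mouse. Correlations of the deviations from the group means were -0.094, 0.41, 0.34 and 0.049 for numbers 1 to 4, and duodenum sham 1 and duodenum sham 4 each correlated best with a jejunum library of another number.

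Some log2 differences changed sign. With surgery and lane over 14 libraries this held for 9 that were far from 0 in the 8 libraries: Cubn (-3.84), Anpep (-2.23), Lct (-1.81), Slc15a1 (-1.16), Apoa4 (-0.74) and the called genes Adad2 (-1.98), Tram2 (-1.94), 9130008F23Rik (1.84) and 1190002N15Rik (-1.20). The values with these covariates were Cdx1 0.33, Cdx2 0.33, Hnf4a -0.48, Cubn 2.58, Anpep 0.057, Slc15a1 0.0312, Lct 0.38, Apoa4 0.20, Fabp1 -0.0807, Fabp2 0.63, 9130008F23Rik -0.81, 1190002N15Rik 0.86, Tram2 0.28 and Adad2 0.033. With surgery alone they were Cdx1 0.0729, Hnf4a -0.32, Slc2a5 -0.0189, Fabp1 -0.0454 and Fabp2 0.0485. With library weights this was Hnf4a -0.0974, with median ratio scaling Hnf4a -0.0299, Gip -0.0282 and Sct -0.00831, and without duodenum sham 1 and 2 Hnf4a -0.24, Ada -0.45, Slc5a1 0.18 and Sct -0.0896. With 1 library left out the ranges were Sct from -0.0986 to 0.30, Hnf4a from -0.139 to 0.139, Slc5a1 from -0.551 to 0.0894, Slc2a5 from -0.136 to 0.478, Gip from -0.125 to 0.289, Bco1 from -0.272 to 0.135, Gata6 from -0.0371 to 0.109 and Fabp1 from -0.0125 to 0.639. In 913 of 1208 combinations of a named gene and a setting, direction and call were kept, in 194 the call was lost and in 57 a call was gained.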

Other observations

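The summed level of 7 MHC class II genes, which present antigen and are induced in enterocytes by interferon gamma, varied far more between libraries than between regions. It was 62.6, 39.5, 1953.7 and 377.2 CPM in duodenum sham 1 to 4 and 70.6, 54.1, 4344.6 and 329.2 CPM in jejunum sham 1 to 4. The order of the replicate numbers was the same in both tissues, although the labels do not say that the numbers mark a mouse. The order was the same gene by gene in H2-DMa, H2-Eb1, H2-Ab1 and H2-DMb1, and not in Cd74, H2-Aa and Ciita. None of the 7 genes was called, and their median log2 difference was -0.33. In the 5 ileum sham libraries the sum was 131.1, 130.5, 5266.7, 4534.5 and 297.7 CPM, and in the 6 RYGB libraries of duodenum and jejunum it was between 39.7 and 132 CPM. These genes were looked at together after their values were seen.

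In the RYGB libraries alone, 1431 of 10778 genes (13.3%) were called between duodenum and jejunum with 3 libraries a group, against 21 between the sham groups with 4. Surgery differs between these fits as well, so the counts do not compare the regional difference alone. This fit of the RYGB libraries was added after seeing the data.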
